A study of Homo sapiens with 16 samples.

Results

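Replication-dependent histone genes encode the H1, H2A, H2B, H3 and H4 proteins that package newly made DNA, and 72 of the 43388 genes in the deposited table belonged to this family. They were taken by symbol, as every gene of the HIST1, HIST2, HIST3 and HIST4 clusters (HIST1H2AJ, HIST2H2AC and so on), leaving out 2 symbols numbered as pseudogenes. The table uses the older symbols, and all 72 matched a RefSeq gene of GRCh38.p14, which gives the newer symbol in parentheses at first mention. RefSeq lists 2 of the 72, HIST2H2BA and HIST2H2BC, as pseudogenes, and they were kept. The family held 6 H1, 17 H2A, 20 H2B, 14 H3 and 15 H4 genes, of which 55 lie on chromosome 6, 16 on chromosome 1 and 1 on chromosome 12.

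These genes are switched on as a cell copies its DNA, so that new histones are made together with new DNA, and they are turned down when replication ends. Their mRNAs usually lack a poly(A) tail and end instead in a short stem-loop that is bound by SLBP and cut with the help of the U7 small nuclear RNA, whereas replacement histones such as H3.3 are made from ordinary polyadenylated mRNAs throughout the cell cycle. Cardiomyocytes made from pluripotent stem cells divide early after differentiation and largely leave the cell cycle as they mature, and some histone genes of this family are known to yield polyadenylated mRNA in differentiated cells.

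The RNA came from WTC11 hPSC-CMs, cardiomyocytes differentiated from 1 human induced pluripotent stem cell line in a single differentiation, with 4 wells in each of 4 groups. All cells were cultured with the B27 supplement. Day 16 RPMI cells were collected before the media were split. From then to Day 30, cells stayed in RPMI (the RPMI group), were moved to RPMI with glucose lowered to 5 mM (RPMI_glcM), or were moved to human plasma-like medium (HPLM). The text deposited with the series counts 3 wells a medium and the labels count 4, and none of the 16 libraries was left out. Since all wells shared 1 differentiation, the p-values measure only the spread between wells, and wells of other differentiations or lines could differ more.

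Levels are given in TPM, transcripts per 1000000, as the authors deposited them. Whether the libraries of 2 groups overlapped was judged on this scale unless rescaling is named, and could differ after rescaling. A library held between 7744784 and 16183695 recovered whole reads, and a gene of 1000 bases gained 0.139 to 0.314 TPM with each read. The mitochondrial ribosomal RNA RNR2 took 410330 to 483359 TPM of each library and the small nuclear RNA RN7SK took 87563 to 138467 TPM, so that the histone genes share what is left. RNR1, the other mitochondrial ribosomal RNA, was highest in Day 30 RPMI replicates 3 and 4, at 14387 and 29276 TPM. It also varied widely within the other groups, from 49.5 to 3793 TPM at Day 16, 225 to 6806 TPM in RPMI_glcM and 138 to 6359 TPM in HPLM. Day 16 replicate 2 held the lowest value of its group in 28 of 62 histone genes, against 16.3% of all genes tested, and Day 30 HPLM replicate 2 in 34 of 62, against 13.9%. Over all genes tested, replicate 4 was most often the lowest at Day 16 (54.9%), in RPMI (55.5%) and in RPMI_glcM (55.5%), and replicate 1 in HPLM (37.2%). The defining markers of cardiomyocytes were present in all libraries, and the summed level of 9 of them ranged from 14227 to 18992 TPM. In bulk RNA, fewer cells of a type and less RNA per cell cannot be told apart.

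The stem-loop at the end of the message is the feature that sets these transcripts apart, and it is shown here because the rule did not use it. Within 150 bases after the stop codon of the canonical GENCODE transcripts (version 44, hg38), a hairpin of 16 bases was searched, with a stem of 6 base pairs opened by GG and closed by CC, at most 1 of them unpaired, and a loop of 4 bases that starts with TT. It was found in 67 of 70 histone genes that had a transcript (95.7%) and in 103 of 19877 other genes (0.518%). It began 22 to 67 bases after the stop codon, with a median of 36. The commonest of 7 forms, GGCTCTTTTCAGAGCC, occurred in 40 genes, and no match was found in HIST1H2BI, HIST1H3E and HIST1H4L. The sites below belong to genes whose values are described further on, with the 16 bases of stem and loop in capitals, read 5′ to 3′ on the strand of the gene.
HIST1H2AJ: acaaaGGCTCTTTTCAGAGCCacttc
HIST1H1B: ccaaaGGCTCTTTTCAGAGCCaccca
HIST1H2BH: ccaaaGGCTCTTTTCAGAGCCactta
HIST3H2A: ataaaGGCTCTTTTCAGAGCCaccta
HIST1H2BC: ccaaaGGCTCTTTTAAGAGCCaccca
HIST1H3G: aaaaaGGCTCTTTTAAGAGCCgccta
HIST2H2AC: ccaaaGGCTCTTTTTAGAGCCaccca
HIST1H4D: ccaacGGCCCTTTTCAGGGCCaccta
HIST1H4I: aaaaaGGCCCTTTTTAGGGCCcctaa
On hg38 these sites lie, in the same order, at chr6:27814303-27814328 on the minus strand, chr6:27866792-27866817 (minus), chr6:26252050-26252075 (plus), chr1:228457364-228457389 (minus), chr6:26123467-26123492 (minus), chr6:26270918-26270943 (minus), chr1:149887386-149887411 (plus), chr6:26188710-26188735 (minus) and chr6:27139649-27139674 (plus). Each is in the 3′ UTR of its gene. HIST3H2A, which rose in 1 medium, carries the same stem and loop as HIST1H2AJ, HIST1H1B and HIST1H2BH, which fell. In HIST2H2BE (H2BC21) the GENCODE transcript runs 1729 bases past the stem-loop, whereas in the H1, H2B and H4 genes HIST1H1B, HIST1H2BH and HIST1H4D it ends 5 bases after it.

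The promoters of the 6 most abundant genes that changed in any comparison are shown as the 150 bases before the RefSeq start (GRCh38.p14, 5′ to 3′ on the strand of the gene). Capitals mark 3 motifs, each on either strand. They are TATAAA (the letters of the TATA box, TTTATA when read on the other strand), CCAAT (the CCAAT box, ATTGG on the other strand) and ATTTGCAT (the octamer bound by POU2F1).
HIST1H2AJ: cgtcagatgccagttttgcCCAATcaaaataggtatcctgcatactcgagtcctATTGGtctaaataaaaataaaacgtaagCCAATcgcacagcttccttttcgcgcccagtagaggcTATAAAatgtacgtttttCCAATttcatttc
HIST1H2AE: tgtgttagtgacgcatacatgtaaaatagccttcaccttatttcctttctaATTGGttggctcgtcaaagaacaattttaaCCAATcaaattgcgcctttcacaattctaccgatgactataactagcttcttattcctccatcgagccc
HIST1H2BC: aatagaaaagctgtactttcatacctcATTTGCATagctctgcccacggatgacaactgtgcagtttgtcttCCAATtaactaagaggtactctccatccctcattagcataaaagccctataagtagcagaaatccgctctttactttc
HIST1H2AM: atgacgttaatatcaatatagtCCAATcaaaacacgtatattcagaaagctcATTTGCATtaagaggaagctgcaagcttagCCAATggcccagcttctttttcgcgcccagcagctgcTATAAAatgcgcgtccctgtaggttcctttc
HIST1H4D: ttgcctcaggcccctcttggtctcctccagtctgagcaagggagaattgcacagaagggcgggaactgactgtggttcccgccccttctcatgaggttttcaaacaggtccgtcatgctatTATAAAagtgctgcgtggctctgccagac
HIST1H1B: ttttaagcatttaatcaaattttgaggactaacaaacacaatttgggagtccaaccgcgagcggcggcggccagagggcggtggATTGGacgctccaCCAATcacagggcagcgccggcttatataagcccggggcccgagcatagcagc
On GRCh38.p14 these windows lie, in the same order, at chr6:27814778-27814927 (minus), chr6:26216771-26216920 (plus), chr6:26123927-26124076 (minus), chr6:27893186-27893335 (minus), chr6:26189113-26189262 (minus) and chr6:27867589-27867738 (minus).

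Motifs were counted on either strand over the window from 250 bases before to 50 after the start. Some genes had more than 1 such window and some had none, so the 69 histone promoters counted here are windows and not genes. TATAAA was present in 46 of 69 histone promoters (66.7%) and in 11.4% of 35047 other promoters. These counts include matches on the strand opposite the gene, so they are not the share of genes with a TATA box of their own. CCAAT was present in 59 of 69 (85.5%) and in 34.5% of the others, and ATTTGCAT in 27 of 69 (39.1%) and in 1.70%. The motifs were spread unevenly over the classes. CCAAT was in each of the 56 H1, H2A, H2B and H3 promoters examined and in 3 of 13 H4 promoters. ATTTGCAT was in 15 of 20 H2B and 11 of 16 H2A promoters, in 1 of 14 H3 promoters and in none of the 6 H1 and 13 H4 promoters. The H3 match, in HIST1H3D, lies in the same window as that of the H2A gene HIST1H2AD and is counted in both classes. A match is a description of letters and not of a bound site, and some promoters are shared by a pair of divergent genes.

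Of the 72 genes, 62 reached a mean of 1 TPM across all 16 libraries and were tested, 10 did not, and 2 of these 10 (HIST1H2BA and HIST1H4G) were listed at 0 in all libraries. Among the 62, 51 had a mean of at least 10 recovered reads and 11 had fewer, and the filter used the mean over all libraries and no group. Expression was concentrated in few genes, and the 8 highest held 49.2% of the family's TPM. The highest in each class were HIST1H2AJ (H2AC14) at a mean of 269.9 TPM, HIST1H2BC (H2BC4) at 189.5 TPM, HIST1H4D (H4C4) at 165.3 TPM, HIST1H1B (H1-5) at 124.3 TPM and HIST1H3E (H3C6) at 47.4 TPM. Sequence shared between genes of the family was counted over stretches of 50 bases, and sequences outside the family were not compared. Of the 70 with a transcript, 35 shared no stretch of 50 bases with another member, and 10 shared more than 50% of them: HIST2H2AA3 with HIST2H2AA4, HIST2H3A with HIST2H3C, HIST2H4A with HIST2H4B, HIST1H4J with HIST1H4K, and HIST1H2AJ with HIST1H2AI. The split between such copies is uncertain, because the counting of reads that match several genes is not given in the sources used here.

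The first question the design poses is how histone expression changed between Day 16 and Day 30 in each medium. The summed level of the 72 genes was lower in all 12 Day 30 libraries than in any Day 16 library. It was 3822 ± 355 TPM (SD, n = 4) at Day 16, and at Day 30 it was 2653 ± 286 TPM in RPMI, 2392 ± 148 TPM in RPMI_glcM and 2452 ± 378 TPM in HPLM, or 0.694, 0.626 and 0.642 of the Day 16 mean. The lowest Day 16 library held 3357 TPM and the highest Day 30 library 2972 TPM. The 3 comparisons share the Day 16 libraries, so they are not independent of each other. Without HIST1H2AJ and HIST1H2AI, whose reads could be exchanged, the ratios were 0.727, 0.656 and 0.666.

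Linker histones and H3 had the lowest Day 30 to Day 16 ratios in RPMI_glcM (0.476 and 0.486) and in HPLM (0.570 and 0.601), and H3 in RPMI (0.608). The H1 sum, for the linker histones that sit between nucleosomes, was 412 ± 43.2 TPM at Day 16 and 274 ± 15.4, 196 ± 6.80 and 235 ± 41.5 TPM at Day 30 in RPMI, RPMI_glcM and HPLM (SD, n = 4). The H3 sum was 262 ± 39.6 TPM at Day 16 and 160 ± 20.97, 128 ± 28.7 and 158 ± 36.8 TPM at Day 30. For the other core histones the ratios in these media were 0.646, 0.644 and 0.640 for H2A, 0.768, 0.663 and 0.667 for H2B, and 0.779, 0.688 and 0.677 for H4. H2A was the most abundant class in every group, at 40.6% to 44.9% of the family's TPM, and the share of H1, 10.8% ± 0.345 in the Day 16 libraries, was 10.4% ± 1.34 in Day 30 RPMI, 8.22% ± 0.691 in RPMI_glcM and 9.56% ± 0.705 in HPLM (SD, n = 4).

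**Figure D1:**
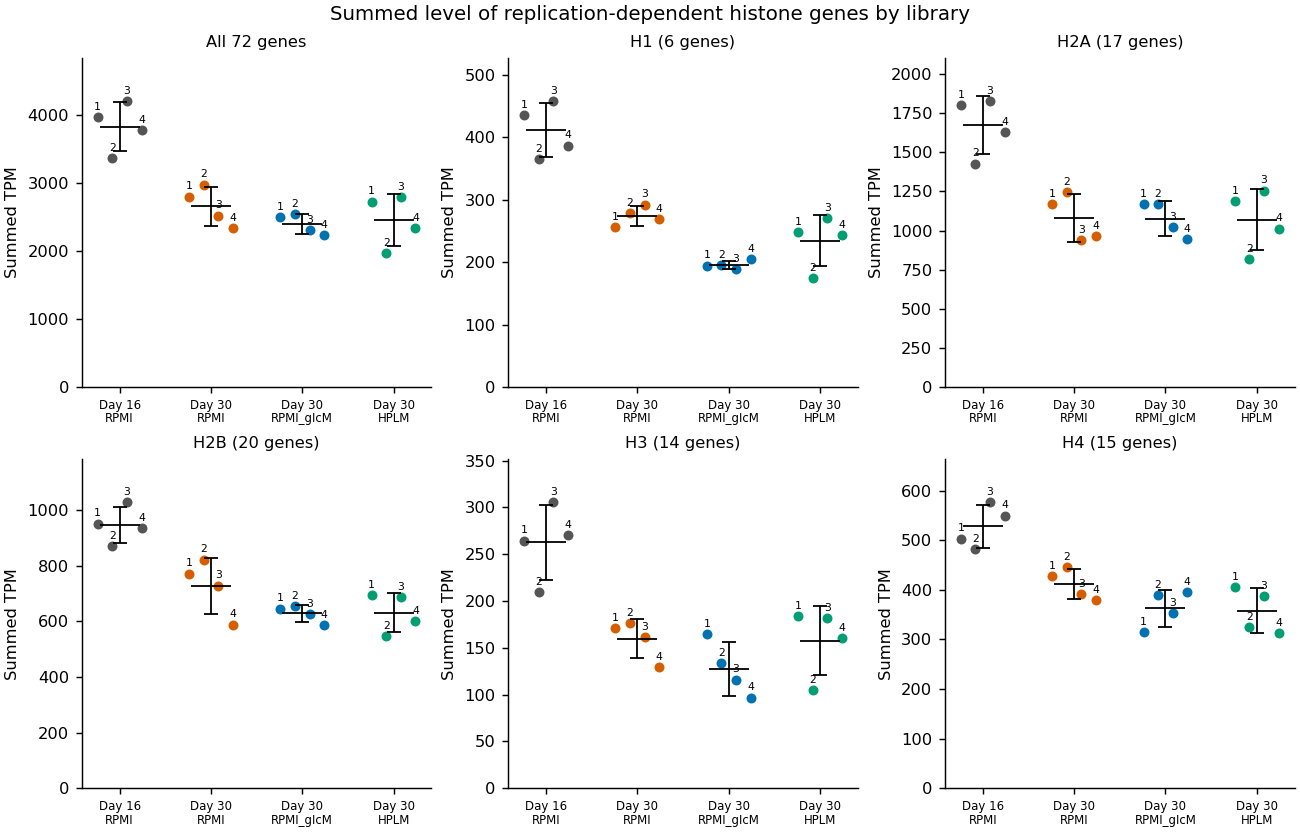
Summed TPM (vertical axes from 0) of all 72 histone genes and of each class, by group on the horizontal axis. Points are libraries labelled by replicate number, the long bar is the mean and the whiskers the SD of 4 libraries; every Day 30 library lies below every Day 16 library for the family sum, where Day 16 spans 3357 to 4199 TPM.

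Gene by gene, falls were common and rises rare. In limma's test on log2(TPM + 1) across all 16122 genes tested, with a Benjamini-Hochberg adjusted p under 0.05, 13 of 62 histone genes fell in Day 30 RPMI against Day 16 (20.97%, against 17.8% of all genes tested) and 0 rose (2.08% of all genes). The 13 became 5 without RPMI replicate 4, and 7 without Day 16 replicate 1 or without Day 16 replicate 3. In Day 30 RPMI_glcM, 29 fell (46.8%, against 17.8%) and 1 rose (1.61%, against 3.34%). In Day 30 HPLM, 25 fell (40.3%, against 22.4%) and 0 rose (against 3%). The median log2 fold change of the 62 genes was −0.49, −0.62 and −0.56 in these comparisons, beside −0.28, −0.22 and −0.29 over all genes tested. At an unadjusted p under 0.05, 33, 34 and 35 histone genes were lower and 1, 2 and 1 higher. The share of all genes at that threshold is not given here, and 80.1%, 73.3% and 79.1% of all genes tested had a negative fold change. By the adjusted counts, the share that fell in RPMI was close to that of all genes, and in the other media it was above it.

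The share of genes called depends on how libraries are scaled, since the median gene of all tested was lower at Day 30 on the TPM scale. With TPM rescaled by median-of-ratios factors, which range from 0.718 to 1.31 and set the median gene near no change, the median of all genes was 0.00348, 0.00553 and −0.00206. On that scale the median change of the histone genes was −0.16, −0.38 and −0.25 in RPMI, RPMI_glcM and HPLM. In RPMI, 1 of 62 fell (1.61%, against 8.91% of all genes) and 2 rose (3.23%, against 8.62%). In RPMI_glcM, 17 fell (27.4%, against 14.2%) and 3 rose (4.84%, against 13.4%). In HPLM, 7 fell (11.3%, against 12.5%) and 2 rose (3.23%, against 12.9%). Of these 2 scales, the share that fell was above that of all genes on both in RPMI_glcM and on the TPM scale alone in HPLM. With mitochondrial, ribosomal RNA and 7SK genes left out instead, 6 fell in RPMI (9.68%, against 12.9%). On that scale 26 fell in RPMI_glcM (41.9%, against 16.4%) and 15 in HPLM (24.2%, against 15.3%). The genes that rose after median-of-ratios rescaling were HIST2H2BE in each medium, HIST1H2AC in RPMI and RPMI_glcM, and HIST3H2A in RPMI_glcM and HPLM. Among the genes described below, the rescaled test lost the calls of HIST1H1C and HIST1H2BC in RPMI_glcM, those of HIST1H1C, HIST1H2AE, HIST1H2AJ, HIST1H2BC, HIST1H2BO, HIST1H3G, HIST1H3I and HIST1H4I in HPLM, and those of all but HIST1H2AE in RPMI. The family sums after rescaling were 0.876, 0.746 and 0.811 of Day 16, with 2564 to 3607 at Day 16. The libraries of RPMI (2437 to 3245) and HPLM (1966 to 3070) then overlapped those of Day 16, and those of RPMI_glcM (2368 to 2549) stayed below them.

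**Figure D2:**
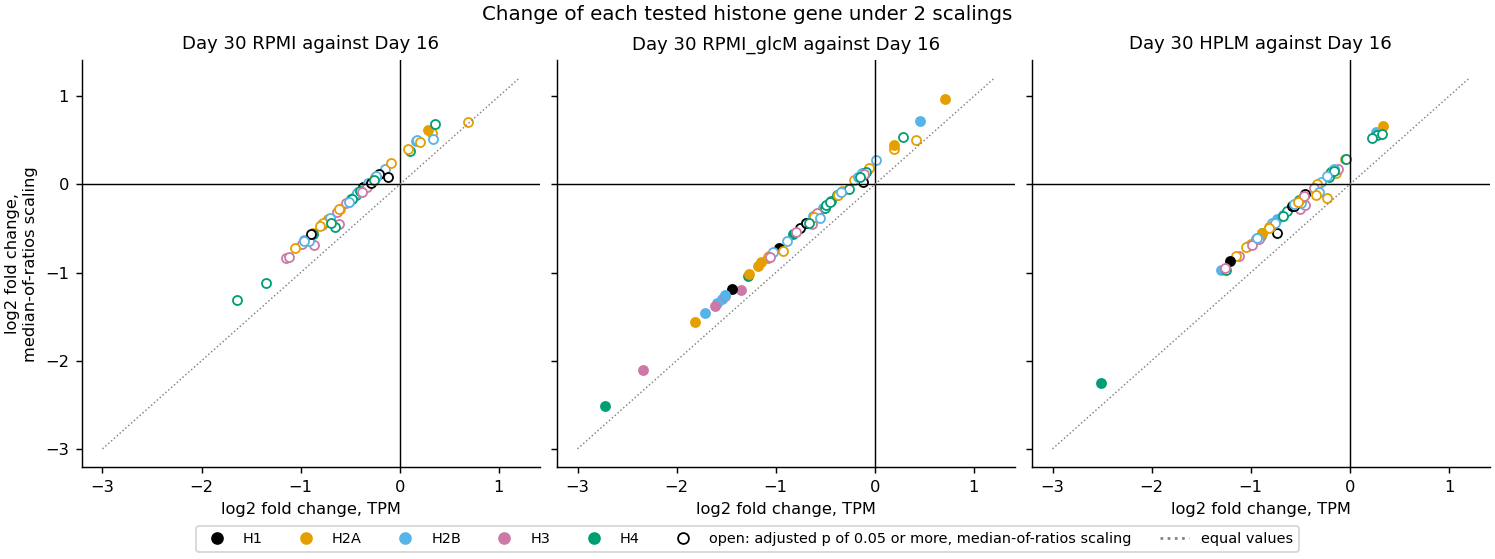
Log2 fold change of each of the 62 tested histone genes from Day 16, on the TPM scale (horizontal) and after median-of-ratios scaling (vertical), in 3 panels for the Day 30 media. Colours are histone classes, filled points passed an adjusted p of 0.05 after rescaling, and the dotted line marks equal values; points lie above the line because rescaling raised the fold changes, and 17 genes in the RPMI_glcM panel stayed lower beyond the test's threshold.

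Under 11 settings that changed the pseudocount, the filter, the scaling, the model or the samples fitted, 50 of the 62 genes passed the filter in each setting. Of these 50, no gene fell in every setting in RPMI, 14 did in RPMI_glcM and 6 in HPLM. The share of all genes that fell in every setting is not given here, so these counts have no background to be read against. The 14 were HIST1H1B, HIST1H1D, HIST1H2AB, HIST1H2AH, HIST1H2AJ, HIST1H2AM, HIST1H2BE, HIST1H2BH, HIST1H2BI, HIST1H2BO, HIST1H3G, HIST1H3I, HIST1H4D and HIST1H4I. The 6 were HIST1H1B, HIST1H2AM, HIST1H2BG, HIST1H2BH, HIST1H2BI and HIST1H4D. These settings reuse the same libraries.

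Among linker histones, HIST1H1B (H1-5, chr6:27866792-27867588) was the most abundant. Its level at Day 16 was 245, 164, 243 and 198 TPM in replicates 1 to 4, and at Day 30 it was 106, 121, 123 and 100 TPM in RPMI, 83.2, 90.6, 66.9 and 67.4 TPM in RPMI_glcM, and 91.5, 51.8, 136 and 102 TPM in HPLM. All Day 30 libraries lay below the lowest Day 16 library. The log2 fold change was −0.90 ± 0.22 (SE, adjusted p = 0.0113), −1.45 ± 0.22 (adjusted p = 0.000265) and −1.21 ± 0.22 (adjusted p = 0.00111) in the 3 media. HIST1H1C (H1-2, chr6:26055740-26056470), a linker histone also made in non-dividing cells, fell by less. It held 107 to 122 TPM at Day 16, 77.4 to 97.6 TPM in RPMI (−0.37, adjusted p = 0.0659), 54.5 to 78.6 TPM in RPMI_glcM (−0.75, adjusted p = 0.000974) and 69.6 to 99.0 TPM in HPLM (−0.45, adjusted p = 0.0242). Of the 5 H1 genes tested, 1, 4 and 4 fell in RPMI, RPMI_glcM and HPLM, where 17.8%, 17.8% and 22.4% of all genes tested fell. After rescaling 0, 2 and 1 fell, where 8.91%, 14.2% and 12.5% of all genes did. The class counts given below stand beside these same shares.

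H2A proteins pair with H2B in the nucleosome, and the H2A genes moved in several ways. HIST1H2AJ (H2AC14, chr6:27814302-27814777), the most abundant of the family, held 552, 281, 530 and 479 TPM at Day 16, with replicate 2 well below the others. At Day 30 it held 240, 250, 197 and 176 TPM in RPMI, 225, 199, 178 and 142 TPM in RPMI_glcM, and 278, 100, 293 and 198 TPM in HPLM, where replicate 3 lay above Day 16 replicate 2. Its log2 fold changes were −1.06 ± 0.29 (adjusted p = 0.0183), −1.27 ± 0.29 (adjusted p = 0.00477) and −1.15 ± 0.29 (adjusted p = 0.00869). In RPMI the call held in 5 of 8 fits that left out 1 library of either group. Of its stretches of 50 bases, 66.3% are shared with other members, so part of this level could belong to HIST1H2AI.

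HIST1H2AM (H2AC17, chr6:27892699-27893185) fell in every medium. It held 293, 260, 326 and 260 TPM at Day 16, and 191, 197, 147 and 123 TPM in RPMI, 148, 154, 111 and 104 TPM in RPMI_glcM, and 172, 97.7, 203 and 160 TPM in HPLM. No Day 30 library reached the Day 16 range, and the log2 fold changes were −0.81 ± 0.21 (adjusted p = 0.0135), −1.15 ± 0.21 (adjusted p = 0.000968) and −0.88 ± 0.21 (adjusted p = 0.00583). HIST1H2AH (H2AC12) held 25.4 to 41.1 TPM at Day 16 and 3.92 to 14.6 TPM in RPMI_glcM (−1.81 ± 0.32, adjusted p = 0.000851), and its changes in RPMI (−0.61, adjusted p = 0.181) and HPLM (−0.81, adjusted p = 0.0726) did not pass.

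HIST1H2AE (H2AC8, chr6:26216921-26217437) had another order of media. It held 273, 339, 309 and 268 TPM at Day 16, 197, 230, 135 and 164 TPM in Day 30 RPMI, 252, 287, 260 and 227 TPM in RPMI_glcM, and 229, 192, 262 and 176 TPM in HPLM. It fell in RPMI (−0.73 ± 0.16, adjusted p = 0.00522) and in HPLM (−0.48 ± 0.16, adjusted p = 0.0362). In RPMI_glcM its groups overlapped (−0.21 ± 0.16, adjusted p = 0.370). It was the only gene that fell in RPMI under both scalings. The difference between RPMI_glcM and RPMI passed the test after rescaling (0.44, adjusted p = 0.0268), and not with the TPM as deposited.

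Other abundant H2A genes changed by less, and their changes did not pass the test on the TPM scale. HIST2H2AC (H2AC20, chr1:149886918-149887411) held 131 to 167 TPM at Day 16, and 117 to 157, 110 to 144 and 111 to 130 TPM at Day 30 in RPMI, RPMI_glcM and HPLM, with log2 fold changes of −0.25 (adjusted p = 0.153), −0.33 (adjusted p = 0.0618) and −0.34 (adjusted p = 0.0521). All 4 HPLM libraries lay below those of Day 16, whereas those of RPMI and RPMI_glcM overlapped them. HIST1H2AC (H2AC6, chr6:26124172-26124690), an H2A gene known to give polyadenylated mRNA as well, held 75.9, 103, 77.5 and 79.3 TPM at Day 16 and 102, 115, 82.8 and 108 TPM in Day 30 RPMI. The groups overlapped through Day 16 replicate 2, and the change was 0.28 ± 0.13 (adjusted p = 0.124). After rescaling it was 0.61 ± 0.14 (adjusted p = 0.00578). Of the 16 H2A genes tested, 4, 5 and 5 fell in the 3 media, and 1, 4 and 1 after rescaling.

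HIST3H2A (H2AC25, chr1:228457364-228457873), an H2A gene of the small cluster on the long arm of chromosome 1, was the 1 gene that rose on the TPM scale. It was singled out after its values were seen. It held 69.1, 68.4, 56.5 and 58.5 TPM at Day 16 and 64.3, 74.1, 48.2 and 52.4 TPM in Day 30 RPMI. In RPMI_glcM it held 108, 105, 97.6 and 102 TPM, above all libraries of both RPMI groups, and in HPLM 84.5, 91.1, 89.9 and 57.3 TPM. The log2 fold change from Day 16 was 0.71 ± 0.15 (adjusted p = 0.00406) in RPMI_glcM, and this call held in all 11 settings. It was 0.33 ± 0.15 (adjusted p = 0.122) in HPLM, where the rescaled value was 0.67 (adjusted p = 0.000765), and −0.09 ± 0.15 (adjusted p = 0.685) in RPMI.

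**Figure D3:**
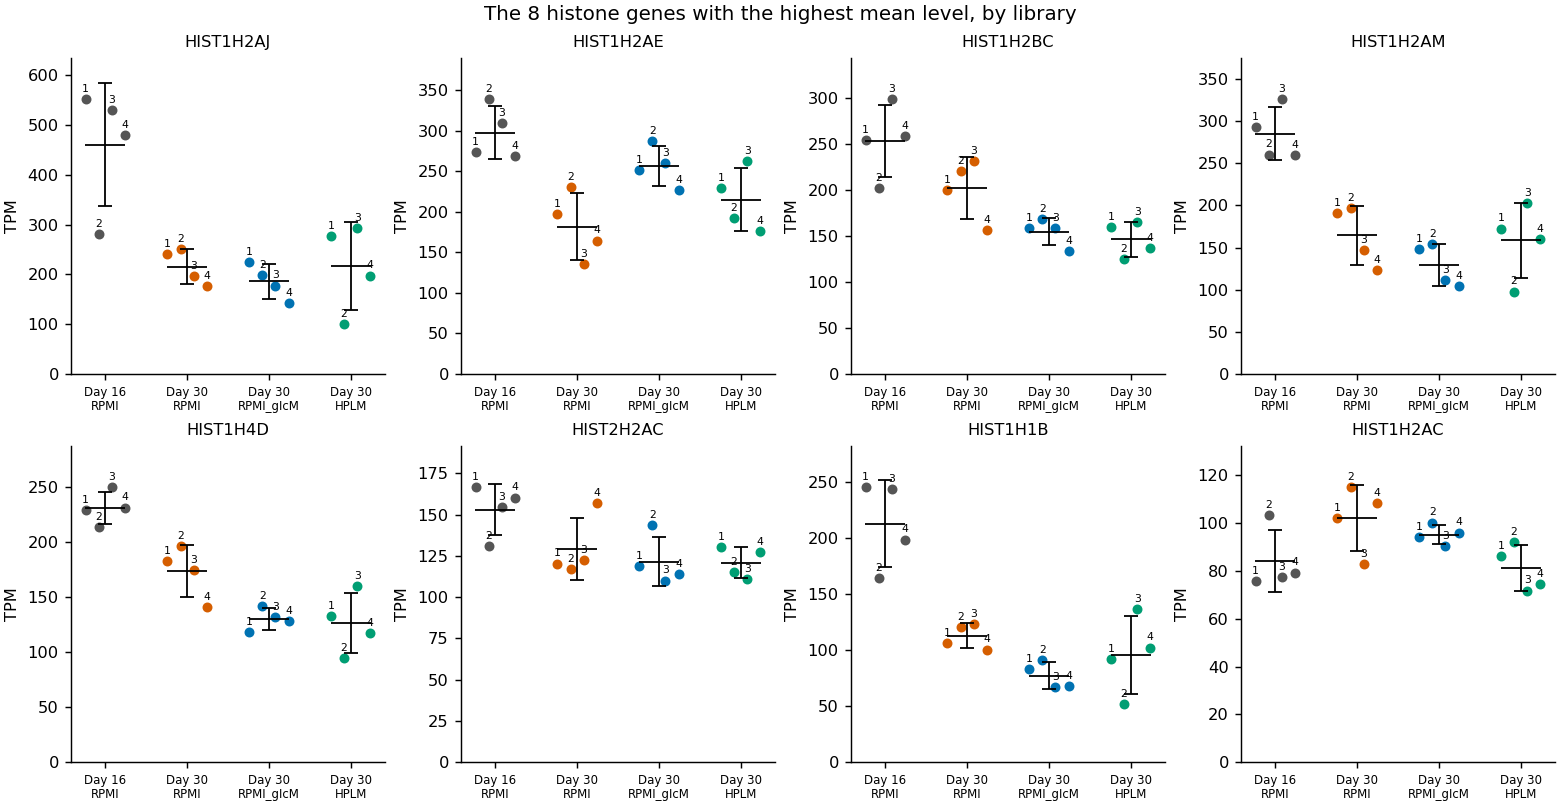
TPM (vertical axes from 0) of the 8 histone genes with the highest mean level, by group on the horizontal axis. Points are libraries labelled by replicate number, long bars are means and whiskers the SD of 4 libraries; HIST1H2AM, HIST1H4D and HIST1H1B have no Day 30 library in the Day 16 range, whereas the groups of HIST1H2AC overlap.

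Among the H2B genes, HIST1H2BH (H2BC9, chr6:26251614-26252075) fell in every medium. It held 35.6, 45.8, 34.2 and 37.9 TPM at Day 16 and 19.2, 22.2, 20.9 and 25.0 TPM in Day 30 RPMI. In RPMI_glcM it held 14.8, 10.7, 11.1 and 11.6 TPM, below all libraries of both RPMI groups, and in HPLM 21.7, 13.0, 20.5 and 19.02 TPM. These values rest on 15 to 78 reads a library. The log2 fold changes from Day 16 were −0.78 ± 0.16 (adjusted p = 0.00315), −1.60 ± 0.16 (adjusted p = 5.04e-06, the smallest of the family) and −1.02 ± 0.16 (adjusted p = 0.000271), and the last 2 held in all 11 settings.

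HIST1H2BI (H2BC10, chr6:26272931-26273412), in which no stem-loop match was found, fell as well. It held 47.4 to 61.2 TPM at Day 16 and 20.1 to 32.5, 12.4 to 24.1 and 12.7 to 27.8 TPM at Day 30, with log2 fold changes of −0.96 ± 0.23 (adjusted p = 0.0104), −1.71 ± 0.23 (adjusted p = 0.000107) and −1.31 ± 0.23 (adjusted p = 0.000965). HIST1H2BO (H2BC17) held 44.9 to 87.6 TPM at Day 16 and 26.7 to 38.5, 18.7 to 25.6 and 18.01 to 54.0 TPM at Day 30. Its change was −0.97 (adjusted p = 0.0203), −1.51 (adjusted p = 0.000862) and −0.94 (adjusted p = 0.0184). The most abundant H2B gene, HIST1H2BC (H2BC4, chr6:26113170-26123926), held 255, 202, 299 and 259 TPM at Day 16 and 200, 221, 232 and 157 TPM in Day 30 RPMI, where it overlapped Day 16 (−0.33 ± 0.14, adjusted p = 0.116). It fell to 159, 169, 159 and 134 TPM in RPMI_glcM (−0.70 ± 0.14, adjusted p = 0.00281) and to 160, 125, 166 and 137 TPM in HPLM (−0.78 ± 0.14, adjusted p = 0.0012). Of the 17 H2B genes tested, 3, 9 and 6 fell, and 0, 4 and 3 after rescaling.

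HIST2H2BE (H2BC21, chr1:149884459-149886682), the H2B gene with the longest recovered length of the family at 2223 bases, moved the other way without passing the test, and was singled out after its values were seen. It held 49.5, 60.9, 54.97 and 48.9 TPM at Day 16, 80.4, 74.8, 50.6 and 42.1 TPM in RPMI, 82.5, 80.3, 74.8 and 59.1 TPM in RPMI_glcM, and 72.3, 64.7, 60.7 and 60.4 TPM in HPLM. The log2 fold changes were 0.16 (adjusted p = 0.518), 0.46 (adjusted p = 0.0763) and 0.27 (adjusted p = 0.272). After rescaling they were 0.49 (adjusted p = 0.000619), 0.71 (adjusted p = 1.41e-05) and 0.60 (adjusted p = 7.12e-05). The rise in this gene therefore depended on the scaling.

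H3 genes were the least abundant of the core histones. HIST1H3E (H3C6, chr6:26224178-26227473), the most abundant, held 52.9 to 76.1 TPM at Day 16 and 32.5 to 59.0, 25.4 to 52.1 and 34.5 to 55.8 TPM at Day 30, and none of its changes passed (−0.54, −0.59 and −0.46, adjusted p = 0.0934, 0.0742 and 0.138). HIST1H3G (H3C8, chr6:26270918-26271413) held 52.3, 44.9, 58.2 and 49.5 TPM at Day 16, 20.997, 32.4, 38.7 and 27.1 TPM in RPMI, 24.7, 15.9, 18.9 and 11.7 TPM in RPMI_glcM, and 27.4, 21.3, 26.997 and 28.9 TPM in HPLM. All Day 30 values were lower, and the log2 fold changes were −0.79 ± 0.20 (adjusted p = 0.0135), −1.52 ± 0.20 (adjusted p = 8.22e-05) and −0.95 ± 0.20 (adjusted p = 0.00323). HIST1H3I (H3C11, chr6:27871845-27872346) held 13.2 to 22.3 TPM at Day 16 and 0.659 to 4.78 TPM in RPMI_glcM, where it had 1 to 9 reads a library. Its fold changes of −1.15 (adjusted p = 0.0235), −2.34 (adjusted p = 0.000132) and −1.26 (adjusted p = 0.0112) carry an SE of 0.33. Of the 11 H3 genes tested, 3, 7 and 5 fell, and 0, 4 and 0 after rescaling.

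For H4, which is encoded by many genes for a near-identical protein, HIST1H4D (H4C4, chr6:26188710-26189112) held 229, 214, 250 and 232 TPM at Day 16, 183, 196, 175 and 141 TPM in RPMI, 118, 142, 132 and 128 TPM in RPMI_glcM, and 133, 94.7, 160 and 117 TPM in HPLM. No Day 30 library reached the Day 16 range. The log2 fold changes were −0.42 ± 0.14 (adjusted p = 0.0470), −0.83 ± 0.14 (adjusted p = 0.000635) and −0.89 ± 0.14 (adjusted p = 0.000376). HIST1H4I (H4C9, chr6:27139282-27139678) held 19.4, 16.9, 23.0 and 26.3 TPM at Day 16 and 18.4, 10.5, 14.3 and 17.3 TPM in RPMI (−0.48 ± 0.18, adjusted p = 0.0676). It held 8.13, 8.48, 7.65 and 8.12 TPM in RPMI_glcM (−1.28 ± 0.18, adjusted p = 0.000134) and 15.9, 9.57, 14.2 and 12.6 TPM in HPLM (−0.68 ± 0.18, adjusted p = 0.0128). The largest fitted falls, −2.73 in RPMI_glcM and −2.51 in HPLM, belonged to HIST1H4L (H4C13), which had 7 to 34 reads a library at Day 16 and 0 to 5 in these media, and was singled out after its values were seen. Of the 13 H4 genes tested, 2, 4 and 5 fell, and 0, 3 and 2 after rescaling.

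**Figure D4:**
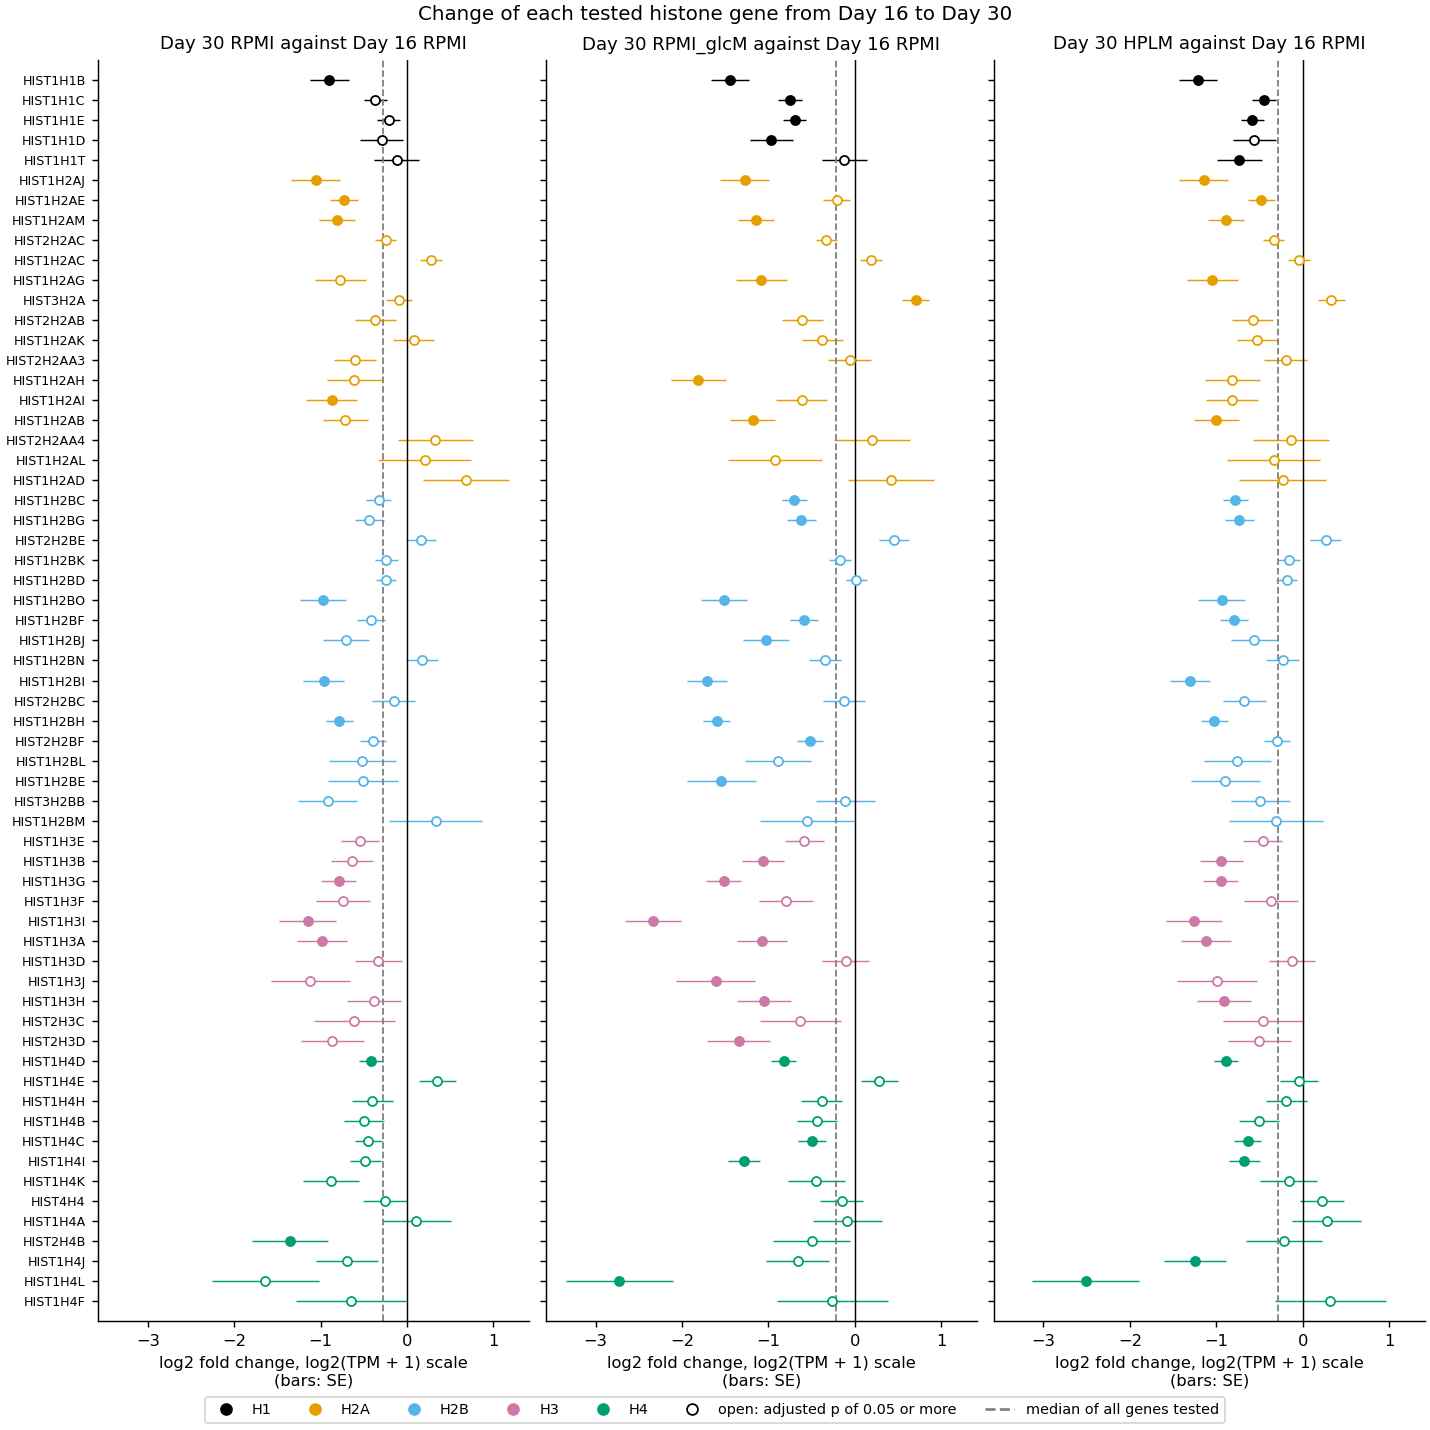
Log2 fold change on the log2(TPM + 1) scale (horizontal) of each of the 62 tested histone genes from Day 16 to Day 30, in 3 panels for the media, with bars of 1 SE and genes ordered by class and mean level. Filled points passed an adjusted p of 0.05 and the dashed line is the median of all genes tested; 13, 29 and 25 genes were called lower, and HIST3H2A in RPMI_glcM was the 1 gene called higher.

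The falls were counted by position as well. Of the 49 tested genes of the HIST1 cluster on chromosome 6, 12, 27 and 25 fell in RPMI, RPMI_glcM and HPLM, with medians of −0.51, −0.75 and −0.73, where 17.8%, 17.8% and 22.4% of all genes tested fell. After rescaling 1, 16 and 7 of them fell, where 8.91%, 14.2% and 12.5% of all genes did. Of the 10 tested genes of the HIST2 cluster on chromosome 1, 1, 2 and 0 fell, with medians of −0.38, −0.42 and −0.32, and after rescaling 0, 1 and 0 fell. Of the 11 tested genes on a list of histone genes known to be also polyadenylated in differentiated cells, 1, 3 and 2 fell, and of the 51 others 12, 26 and 23 fell. After rescaling, 0 of the 11 listed genes fell in any medium, and 1, 17 and 7 of the 51 others did. Of the 11, 2, 2 and 1 were then higher, where 8.62%, 13.4% and 12.9% of all genes were, and of the 51 others 0, 1 and 1. Of the 5 genes with a recovered length above 800 bases (HIST2H2BE, HIST1H2BD, HIST2H2BF, HIST1H3D and HIST1H2BK), 0, 1 and 0 fell, and after rescaling 0 fell and 1 rose in each medium. The differences between these subgroups were not tested.

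Neighbouring genes that start back to back within 1000 bases of each other formed 14 pairs, mostly an H2A gene beside an H2B gene, whose proteins pair in the nucleosome, and their changes were often unlike in size. HIST1H2AM and HIST1H2BO, with 239 bases between their starts, changed by −1.15 and −1.51 in RPMI_glcM, and both fell in each medium. HIST1H2BJ and HIST1H2AG, with 247 bases, changed by −1.03 and −1.08. HIST1H2BC and HIST1H2AC, with 245 bases, changed by −0.70 and 0.19. HIST1H2BK and HIST1H2AH, also with 247 bases, changed by −0.17 and −1.81, and HIST2H2BE and HIST2H2AC, with 235 bases, by 0.46 and −0.33. HIST3H2A, which rose by 0.71, starts 229 bases from HIST3H2BB, whose change was −0.11. The difference within a pair was not tested.

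The second question is whether the Day 30 media differed from each other. On the TPM scale, limma called 3 histone genes, all between RPMI_glcM and RPMI, which differ in glucose. HIST1H2BH and HIST1H4I were lower in RPMI_glcM (2 of 62 or 3.23%, against 0.837% of all genes tested) and HIST3H2A was higher (1 of 62 or 1.61%, against 1.36%). Their log2 fold changes were −0.81 ± 0.16 (adjusted p = 0.0117), −0.80 ± 0.18 (adjusted p = 0.0290) and 0.80 ± 0.15 (adjusted p = 0.0121), and the 4 libraries of each medium did not overlap for any of them. After rescaling 7 were lower (11.3%, against 5.89%) and 2 higher (3.23%, against 6.17%). The 7 were HIST1H1D, HIST1H2AH, HIST1H2AK, HIST1H2BH, HIST1H3G, HIST1H3I and HIST1H4I, and the 2 were HIST3H2A and HIST1H2AE. With only these 2 groups in the fit, 0 passed in either direction. The 2 lower genes became 0 without RPMI_glcM replicate 2, 1 without RPMI_glcM replicate 3 or without RPMI replicate 3 or 4, and the 1 higher gene became 2 without RPMI replicate 2 or RPMI_glcM replicate 3.

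Between HPLM and RPMI at Day 30, 0 of 62 were lower (against 0.893% of all genes tested) and 0 higher (against 1.51%) by limma. At an unadjusted p under 0.05, 8 were lower and 3 higher, and the share of all genes at that threshold is not given here. Limma-voom on recovered reads called 2 of 51 lower (3.92%, against 7.46%) and 1 higher (1.96%, against 8.64%). Without RPMI replicate 4, limma called 4 lower. After rescaling HIST1H2AK was lower (1 of 62 or 1.61%, against 5.87%) and HIST3H2A higher (1 of 62 or 1.61%, against 7.05%). Between HPLM and RPMI_glcM, 0 were lower (against 0.0186%) and 0 higher (against 0.0496%), also after rescaling (against 0.626% and 0.999%) and by limma-voom. At an unadjusted p under 0.05, 3 were lower and 8 higher in HPLM, again without the share of all genes, and the smallest adjusted p was 0.254. The median log2 fold change of the 62 genes was −0.20 for RPMI_glcM against RPMI, −0.17 for HPLM against RPMI and 0.13 for HPLM against RPMI_glcM, beside 0.05, −0.02 and −0.06 over all genes tested.

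The counts of the following gene lists on the TPM scale stand beside 17.8%, 17.8% and 22.4% of all genes tested that fell in RPMI, RPMI_glcM and HPLM and 2.08%, 3.34% and 3% that rose, and those after rescaling beside 8.91%, 14.2% and 12.5% that fell and 8.62%, 13.4% and 12.9% that rose. Differences between lists were not tested. Of 22 tested genes of 3′ end processing and turnover, 6, 1 and 7 fell in RPMI, RPMI_glcM and HPLM and 0 rose, with medians of −0.34, −0.19 and −0.36. After rescaling 3, 2 and 3 fell and 2, 1 and 1 rose, with medians of −0.03, 0.05 and −0.03. SLBP, the protein that binds the stem-loop, held 10.01 ± 0.519 TPM at Day 16 and 7.81 ± 1.08, 7.56 ± 1.14 and 6.21 ± 0.686 TPM at Day 30 (SD, n = 4). It fell in HPLM (−0.61 ± 0.13, adjusted p = 0.00343) and not beyond the threshold in RPMI (−0.33, adjusted p = 0.0847) or RPMI_glcM (−0.37, adjusted p = 0.0550). In RPMI, the fall of UPF1, a helicase of RNA decay, was −0.66 (adjusted p = 0.00589), that of the cap-binding NCBP2 −0.68 (adjusted p = 0.0115) and that of CSTF2, a cleavage factor subunit, −0.60 (adjusted p = 0.00802). SNRPG, a ring protein of small nuclear RNPs (−0.49, adjusted p = 0.0120), and the cleavage subunits CPSF2 (−0.59, adjusted p = 0.0314) and CPSF3 (−0.46, adjusted p = 0.0357) also fell there. CPSF2 was the 1 gene of the list that fell in RPMI_glcM (−0.66, adjusted p = 0.0154). RNU7-1, the U7 small nuclear RNA gene, was listed at 0 in all libraries.

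Of 12 tested regulators of histone gene transcription, 3 fell in each medium and 0 rose, and after rescaling 1, 3 and 3 fell and 1, 0 and 1 rose. NPAT, the coactivator that gathers at histone gene clusters, held 8.61 ± 1.03 TPM at Day 16 and 7.73 ± 2.67, 7.87 ± 0.603 and 8.32 ± 1.30 TPM at Day 30, with log2 fold changes of −0.19, −0.11 and −0.05 (adjusted p = 0.483, 0.708 and 0.862). POU2F1, which binds the octamer, fell in all media (−0.63, −0.78 and −0.81, adjusted p = 0.0148, 0.00313 and 0.0023). Cyclin A2 (CCNA2), active from DNA replication to mitosis, also fell in all of them (−0.92, −1.25 and −1.10, adjusted p = 0.0285, 0.00423 and 0.00881). GON4L fell in RPMI (−0.42, adjusted p = 0.0405), and E2F3, a transcription factor of the cell cycle, in RPMI_glcM (−0.70, adjusted p = 0.00327) and HPLM (−0.73, adjusted p = 0.00229).

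Of 12 tested genes listed as replacement and variant histones, H2AFX and CENPA among them, 3, 3 and 4 fell, with medians of −0.32, −0.37 and −0.41. After rescaling 0, 3 and 1 fell and 1 rose in each medium. H3F3A, which encodes H3.3, held 304 ± 25.1 TPM at Day 16 and 289 ± 58.3, 234 ± 18.6 and 229 ± 22.2 TPM at Day 30 (−0.09, −0.38 and −0.41, adjusted p = 0.622, 0.0515 and 0.0313). H2AFX, a variant that is phosphorylated at DNA breaks, fell in all media (−0.68, −1.18 and −1.05, adjusted p = 0.0292, 0.000722 and 0.00182), as did H2AFV, which encodes an H2A.Z (−0.60, −0.83 and −0.65, adjusted p = 0.0159, 0.00156 and 0.00726). H2AFY2, a macroH2A gene, fell in RPMI (−0.40, adjusted p = 0.0424) and in HPLM (−0.50, adjusted p = 0.0118). The linker replacement histone H1F0 held 42.2 ± 13.0 TPM at Day 16 and 41.9 ± 9.68, 37.7 ± 5.47 and 32.0 ± 3.71 TPM at Day 30, and none of its changes passed. Of 17 tested histone chaperones, 1, 2 and 4 fell and 0 rose, and after rescaling 0, 1 and 2 fell and 1, 3 and 1 rose, with medians of 0.11, 0.06 and 0.05. Among those that fell on the TPM scale were SSRP1 of the FACT complex in all media (−0.66, −0.55 and −0.54, adjusted p = 0.00304, 0.00701 and 0.0074) and HJURP, which loads the centromeric histone CENPA, in RPMI_glcM (−1.22, adjusted p = 0.0049) and HPLM (−1.21, adjusted p = 0.00468).

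Counts of falls were unlike for genes of DNA replication and of mitosis. Of 35 DNA replication genes, 5, 13 and 6 fell and 0 rose in RPMI, RPMI_glcM and HPLM, with medians of −0.40, −0.43 and −0.34, and after rescaling 0, 7 and 1 fell and 0, 1 and 1 rose. The share of these genes that fell was below that of all genes in RPMI and HPLM on both scales, and above it in RPMI_glcM. Their sum was 527 ± 58.6 TPM at Day 16 and 394 ± 74.2, 389 ± 43.6 and 421 ± 41.4 TPM at Day 30. TYMS, the thymidylate synthase, fell in all media (−0.86, −0.68 and −0.57, adjusted p = 0.000832, 0.00296 and 0.00855), and so did LIG1, the replicative ligase (−0.66, −0.51 and −0.58, adjusted p = 0.0157, 0.0458 and 0.0232), and the helicase subunit gene GINS1 (−0.54, −0.78 and −0.73, adjusted p = 0.0279, 0.00272 and 0.00365). The DNA polymerase POLE and the primase PRIM1 fell in RPMI (−0.68 and −0.67, adjusted p = 0.0151 and 0.0416) and in RPMI_glcM (−0.59 and −0.75, adjusted p = 0.0264 and 0.0234).

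Of 20 mitosis genes, 17, 20 and 20 fell, with medians of −0.97, −1.23 and −1.12, and after rescaling 10, 17 and 14 fell. Their sum was 800 ± 88.9 TPM at Day 16 and 410 ± 64.1, 342 ± 41.6 and 386 ± 141 TPM at Day 30. PLK1, a mitotic kinase, changed most among those named (−1.47, −1.72 and −1.54, adjusted p = 0.003, 0.000591 and 0.00142). CDC20, which activates the anaphase-promoting complex, changed by −1.38, −0.85 and −1.12, and BIRC5, a chromosomal passenger protein, by −1.19, −1.50 and −1.26. CCNB1 and CCNB2, the B-type cyclins, and the kinase AURKA fell as well, by 0.55 to 1.57 on the log2 scale. The libraries with the lowest histone sums differed in these lists. Day 16 replicate 2 held the lowest sum of its group for histone genes (3357 TPM) and DNA replication genes (448 TPM) and the highest for mitosis genes (914 TPM, against 702 to 814 TPM). HPLM replicate 2 held the lowest sum of its group for histone genes (1972 TPM) and mitosis genes (201 TPM, against 352 to 500 TPM).

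**Figure D5:**
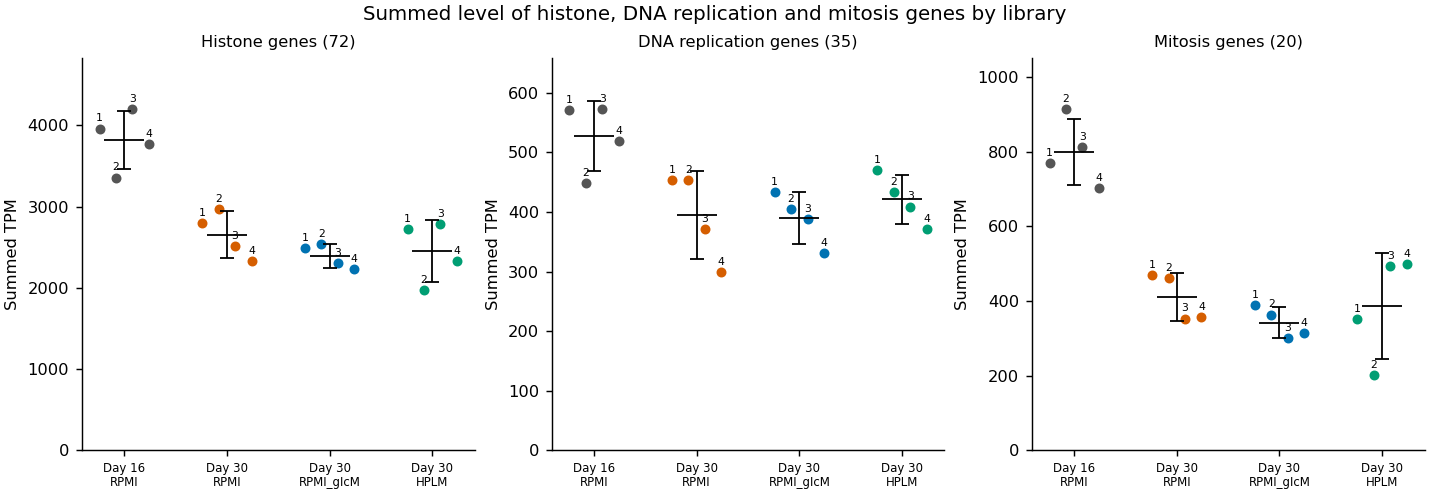
Summed TPM (vertical axes from 0) of the 72 histone genes, 35 DNA replication genes and 20 mitosis genes, by group on the horizontal axis. Points are libraries labelled by replicate number, long bars are means and whiskers the SD of 4 libraries; the Day 16 means are 3822, 527 and 800 TPM, and Day 16 replicate 2 is lowest of its group for histone and DNA replication genes and highest for mitosis genes.

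Many markers of other cell types fell between Day 16 and Day 30 on the TPM scale. Of 6 tested fibroblast-like markers, 3, 5 and 4 fell in RPMI, RPMI_glcM and HPLM and 0 rose. After rescaling 2, 5 and 4 of them fell and 1, 1 and 0 rose. The sum over 8 fibroblast-like genes was 240 to 436 TPM at Day 16 and 118 to 299 TPM at Day 30. Of 4 tested smooth muscle-like markers, 2, 3 and 3 fell (0, 1 and 1 after rescaling), with a sum of 395 to 855 TPM at Day 16 and 244 to 949.6 TPM at Day 30, and the defining marker MYH11 was at 0 in all libraries. Of 7 tested hepatic endoderm-like markers, 6 fell in each medium and ALB rose (5, 6 and 6 fell after rescaling), and the sum was 423 to 749 TPM at Day 16 and 66.8 to 540.4 TPM at Day 30. Of 6 pluripotent-like markers the 3 tested ones fell, with a sum of 52.7 to 70.3 TPM at Day 16 and 9.41 to 31.1 TPM at Day 30, and POU5F1, NANOG and SOX2 had means under 1 TPM. Of 7 endothelial-like markers 1 was tested and fell, and the sum was 42.6 to 54.7 TPM at Day 16 and 13.5 to 31.2 TPM at Day 30. Cardiomyocyte markers moved in both directions. Of 9 tested, 2, 3 and 3 fell on the TPM scale, MYH6 and NKX2-5 among them in each medium, and 1, MYH7, rose in each. After rescaling 2, 1 and 2 fell and 1, 3 and 2 rose. The part of these cell types in the histone values was not tested.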

How the data were processed

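Libraries were made by the authors from total RNA (stranded Takara SMARTer chemistry, which needs no poly(A) tail) and sequenced on a NovaSeq. The authors aligned reads to hg38 with decoys with STAR 2.5.3a and counted them with featureCounts 2.0.3. The submitters' processing notes also name R 4.1.3. The authors deposited TPM, counts per gene length scaled to 1000000 a library. The annotation, gene lengths, handling of reads with several matches and the TPM tool are not given in the sources used here.

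The 16122 genes that reached a mean of 1 TPM entered limma (3.58.1, under R 4.3.3) as log2(TPM + 1), using lmFit and eBayes with trend, all 16 libraries in the fit, for 6 comparisons, adjusted by Benjamini-Hochberg within each, at a threshold of 0.05. A fold change on this scale understates that of low genes. Whole reads were recovered from the TPM for all 31047 genes above 0, from ratios between libraries. No column of per-sample values was left out. The members and lists were chosen with earlier results of these data known, so list counts stand beside the share of all genes and carry no test. Genes are given in every library if among the 8 most abundant, the highest of a class, or among the 12 called with the smallest adjusted p, and by range where space is short; list genes are the up to 6 with the smallest adjusted p in RPMI against Day 16, with further list genes named for their role after their values were seen. SE is limma's, from all groups. The fits were tested on simulated data. Alternatives were a pseudocount of 0.1, all genes above 0, at least 5 TPM or 10 reads, median-of-ratios factors, rescaling without mitochondrial, ribosomal RNA and 7SK genes, only the 2 groups compared, a replicate block, RNR1 as a covariate, limma-voom on recovered reads, and each library left out. Leaving out libraries in pairs, and the left-out sums, were chosen after seeing the data. Promoters and gene positions are from RefSeq (GRCh38.p14), and stem-loops and shared stretches from GENCODE version 44 on hg38. Other steps used Python 3.11.15, numpy 2.4.6 and pandas 2.3.3.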

Additional observations from a re-analysis of the deposited data

Results flagged for a closer look

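Of 72 groups of 4 libraries tested among the named genes, 3 had a library far from the others, where chance flags about 1 in 20. HIST2H2AC held 157 TPM in Day 30 RPMI replicate 4 and 117 to 123 TPM in the other replicates. HIST1H2AC held 103 TPM in Day 16 replicate 2 and 75.9 to 79.3 TPM in the others. HIST1H2AH held 25.4 TPM in Day 16 replicate 2 and 39.2 to 41.1 TPM in the others.

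Between Day 30 RPMI_glcM and Day 30 RPMI, 3 genes changed by unlike amounts from the shared Day 16 libraries, by limma's test of the difference. The differences were 0.80 for HIST3H2A (adjusted p = 0.0121), −0.81 for HIST1H2BH (adjusted p = 0.0117) and −0.80 for HIST1H4I (adjusted p = 0.0290), with no overlap of the 4 libraries a group. Over the 11 settings the adjusted p ranged from 0.00073 to 0.073 for HIST3H2A, from 0.00578 to 0.073 for HIST1H2BH and from 0.0105 to 0.146 for HIST1H4I.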

How the results depend on the processing

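In RPMI against Day 16, 13 genes were called lower and 0 higher. Median-of-ratios scaling gave 1 and 2, leaving out mitochondrial, ribosomal RNA and 7SK genes 6 and 2, RNR1 as a covariate 5 lower, and limma-voom 2 and 2. A replicate block gave more lower calls than the main fit, as described at the end. Leaving out libraries gave 2 to 19 lower (5 without RPMI replicate 4, 7 without Day 16 replicate 1 or 3, 2 without RPMI replicates 3 and 4) and 0 to 1 higher. In RPMI_glcM against Day 16 (29 and 1), rescaling gave 17 and 3, limma-voom 14 and 3, and 4 other settings 2 higher: leaving out those RNA genes, only the 2 groups, the replicate block and RNR1. There the share called lower was 41.9% without those RNA genes (against 16.4%) and 27.5% by limma-voom (against 15.2%). Leaving out libraries gave 23 to 31 lower and 1 higher. In HPLM against Day 16 (25 and 0), rescaling gave 7 and 2, leaving out those genes 15 and 2, limma-voom 8 and 2, RNR1 1 higher, and libraries left out 19 to 26 lower and 0 to 1 higher (1 without HPLM replicate 4). The share called lower was 24.2% without those genes (against 15.3%) and 15.7% by limma-voom (against 14.8%). For the remaining settings and for libraries left out, shares of all genes are not given here.

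In RPMI_glcM against RPMI (2 and 1), rescaling and leaving out those genes gave 7 and 2 each, all genes above 0 gave 1 lower, at least 10 reads 5 lower, only the 2 groups 0 and 0, and limma-voom 2 higher. Without those genes the shares were 11.3% lower (against 3.34% of all genes) and 3.23% higher (against 4.13%), and limma-voom gave 3.92% higher (against 6.98%). Libraries left out gave 0 to 4 lower (0 without RPMI_glcM replicate 2, 1 without its replicate 3 or without RPMI replicate 3 or 4, 4 without RPMI replicates 3 and 4) and 1 to 2 higher (2 without RPMI replicate 2 or RPMI_glcM replicate 3). In HPLM against RPMI (0 and 0), rescaling and leaving out those genes gave 1 and 1 each, limma-voom 2 and 1, and libraries left out 0 to 8 lower (8 without RPMI replicates 3 and 4, 4 without replicate 4) and 0 to 1 higher. In HPLM against RPMI_glcM each left-out fit gave 0. Among these, the cause was not tested, apart from fewer genes or samples in the fit.

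The sums against Day 16 were 0.694, 0.626 and 0.642 in RPMI, RPMI_glcM and HPLM. They were 0.876, 0.746 and 0.811 after rescaling, 0.793, 0.695 and 0.747 without those RNA genes, and 0.666 to 0.722, 0.602 to 0.647 and 0.613 to 0.683 with a library left out.

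Some named log2 fold changes against Day 16 that had not passed the test turned positive. After rescaling and by limma-voom, HIST1H2AE in RPMI_glcM was 0.0507 and 0.0538. In RPMI, HIST1H2BC was 0.0105 and 0.0286, and HIST2H2AC 0.0890 and 0.0728. In HPLM, HIST2H2AC was 0.00136 and 0.00793, and HIST1H2AC 0.29 and 0.29, 0.17 without those RNA genes, 0.000203 with RNR1, and between −0.107 and 0.0575 with a library left out (0.0575 without Day 16 replicate 2, 0.0110 without HPLM replicate 3).

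Replicate numbers were not used to pair the wells, and whether they share structure was not settled. In each of the 6 comparisons at least 1 same-numbered pair had a correlation of deviations under 0.1. Other same-numbered pairs had higher ones. In RPMI against Day 16 it was 0.408 for replicate 2 and 0.231 for replicate 4, where the best other pairing gave −0.116 and 0.0245. Replicates 2 and 4 also lay above the best other pairing in RPMI_glcM (0.101 and 0.215) and HPLM (0.197 and 0.145) against Day 16. Replicate 3 lay below it in every medium against Day 16, and replicate 1 in RPMI and HPLM. With a replicate block, 20 genes were lower and 1 higher in RPMI against Day 16, and 2 were higher in RPMI_glcM against Day 16. The shares of all genes under that model are not given here, so these counts have no background to be read against. Low counts limit 11 of the 62 genes, which had a mean under 10 reads.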
